A study of Mus musculus with 4 samples.

Results

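The cells described here are islet T cells whose T-cell receptor beta chain (TRB) carried a short CDR3, 12 amino acids or fewer from the conserved cysteine to the conserved phenylalanine. They were the called cells with exactly 1 TRB and at least 1 alpha chain (TRA) among high-confidence, full-length, productive contigs. There were 2009 such cells among 11035 paired cells (18.2%) and 13345 called cells, and they formed 1088 of 7179 clonotypes (15.2%). Cells of 1 library with the same V, the same J and the same CDR3 bases in TRA and in TRB were counted as 1 clonotype. The cells were set against the 7671 cells (5102 clonotypes) with a TRB CDR3 of 13 to 15 amino acids. At the edge of the rule, 779 clonotypes had 12 amino acids and 1430 had 13.

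The study read receptors of single cells from pancreatic islets in 4 libraries: Tet2KO NOD 1 and 2, and NOD 1 and 2. NOD mice develop autoimmune diabetes spontaneously, and the NOD libraries bear the genotype label WT; Tet2KO NOD mice carry a Tet2 deletion (Tet2-/-) that was made on the B6 background and backcrossed to NOD; Tet2 encodes an enzyme that oxidises methylcytosine. No Cre or cell-type promoter is named in the labels, and the level of Tet2 was not analysed here. Islets of 4 to 6 mice were pooled per genotype, so the pool was the replicate (n = 2 per genotype). The design text gives 10 to 13 weeks as the age, whereas the protocol counts those weeks after an event abbreviated BTM and mentions bone marrow transplant donors, so whether the mice were transplanted was not settled.

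The CDR3 of TRB is the loop that usually lies over the centre of the presented peptide. It is put together from the end of a V segment, a D segment and the start of a J segment; bases are trimmed from the ends before joining, and terminal transferase adds bases that no segment encodes. Its length therefore depends on how long the germline ends are, how far they were trimmed and how many bases were put between them. Because V and J bases are part of the counted length, the use of V, D and J by length class describes how short loops were built.

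The germline ends are shown because they set what each segment can bring to the loop. They were read from GRCm38 (a C57BL/6J sequence, whose alleles can differ from those of NOD), and capitals mark the bases that lie in the CDR3. The J segments called higher (TRBJ2-7, TRBJ1-1), the ones called lower with the largest folds (TRBJ1-3, TRBJ2-2, TRBJ1-6) and TRBJ1-2, which is as short as TRBJ1-1, follow first.
TRBJ2-7 (chr6:41543810-41543856, + strand): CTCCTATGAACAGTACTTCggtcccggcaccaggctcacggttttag
TRBJ1-1 (chr6:41533864-41533911, + strand): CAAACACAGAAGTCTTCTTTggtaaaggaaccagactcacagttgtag
TRBJ1-2 (chr6:41534001-41534048, + strand): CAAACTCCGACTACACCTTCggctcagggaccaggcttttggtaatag
TRBJ1-3 (chr6:41534323-41534376, + strand): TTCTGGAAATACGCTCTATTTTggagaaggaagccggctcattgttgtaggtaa
TRBJ2-2 (chr6:41542957-41543007, + strand): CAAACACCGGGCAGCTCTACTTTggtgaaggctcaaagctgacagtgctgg
TRBJ1-6 (chr6:41535554-41535606, + strand): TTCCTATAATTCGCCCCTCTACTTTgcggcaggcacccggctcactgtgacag
TRBJ2-7 brings 19 CDR3 bases, TRBJ1-1 and TRBJ1-2 bring 20 each, and the other segments shown bring 22 to 25.

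The V ends printed next are of the segments called higher or lower in short loops, and the D segments are shown whole.
TRBV20 (chr6:41188952-41188977, + strand): ggcttatatctcTGTGGTGCTAGGGA
TRBV15 (chr6:41141630-41141658, + strand): gctgtgtatctgTGTGCCAGCAGTTTAGC
TRBV13-2 (chr6:41121805-41121832, + strand): tcagtgtacttcTGTGCCAGCGGTGATG
TRBV5 (chr6:41062775-41062803, + strand): gctgtctattttTGTGCCAGCAGCCAAGA
TRBV2 (chr6:41047967-41047995, + strand): gccacatacttcTGTGCCAGCAGCCAAGA
TRBV19 (chr6:41179021-41179048, + strand): gccgtttttctcTGTGCCAGCAGTATAG
TRBD1 (chr6:41533201-41533212, + strand): GGGACAGGGGGC
TRBD2 (chr6:41542163-41542176, + strand): GGGACTGGGGGGGC
TRBV20 ends with 14 CDR3 bases, TRBV13-2 and TRBV19 with 16, and TRBV15, TRBV5 and TRBV2 with 17. TRBD1 holds 12 bases and TRBD2 holds 14.

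The contig tables held 85137263 to 220516119 reads and 1664 to 6835 called cells per library, and short cells numbered 366 and 189 in Tet2KO NOD 1 and 2, against 985 and 469 in NOD 1 and 2. The median short cell had 12, 13, 12 and 16 TRB UMIs (unique molecular identifiers) in Tet2KO NOD 1, Tet2KO NOD 2, NOD 1 and NOD 2. Contigs of gamma or delta chains occurred (22 to 187 per library) but none was productive, and no immunoglobulin contig was found. The receptors of short clonotypes were therefore of the alpha-beta kind that the rule requires. An invariant NKT receptor (TRAV11 family with TRAJ18) occurred in 2 short clonotypes (0.184%), against 19 of the 13 to 15 class (0.372%). A MAIT receptor (TRAV1 with TRAJ33) occurred in 0, against 4 (0.0784%). Of the called-cell barcodes, 81 occurred in more than 1 library; 20 short cells carried one of them.

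**Figure D1:**
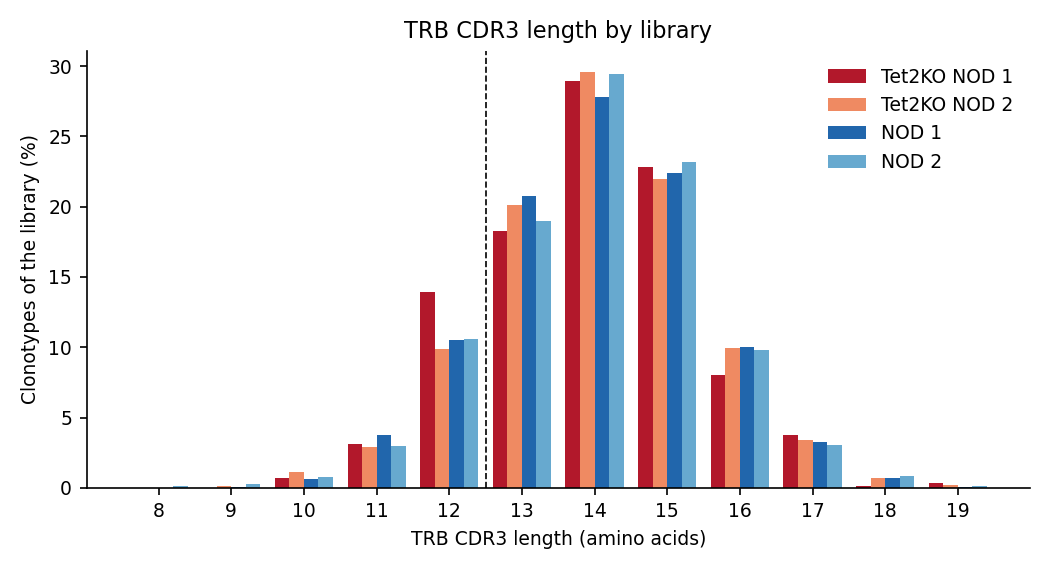
The share of each library's clonotypes (y axis, percent) by TRB CDR3 length (x axis, amino acids), 1 bar per library; the dashed line separates short loops from the rest. The 4 libraries have their peak at 14 amino acids, and Tet2KO NOD 1 stands highest at 12.

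The first comparison asked how often short loops occurred in each genotype. Short loops made up 17.7% and 14.0% of the clonotypes of Tet2KO NOD 1 and 2, against 15.1% and 14.7% of those of NOD 1 and 2. The NOD libraries lie between the Tet2KO NOD libraries, so the genotypes overlap. The means were 15.8% ± 2.61 in Tet2KO NOD and 14.9% ± 0.244 in NOD (SD, n = 2 each, exact two-sided permutation p = 1, where 0.33 is the smallest possible). The Wilson 95% intervals of single libraries, which cover counting error only, were 15.3% to 20.3% and 12.0% to 16.3% for Tet2KO NOD 1 and 2, against 13.9% to 16.3% and 13.1% to 16.5% for NOD 1 and 2. Counted by cells, the shares were 22.8% and 13.6% in the Tet2KO NOD libraries, against 17.7% and 18.9% in the NOD libraries. Tet2KO NOD 1 was the highest library and Tet2KO NOD 2 the lowest by cells. In edgeR's quasi-likelihood test on clonotype counts, 0 of 10 rows (the short class and 9 single lengths) passed an adjusted p of 0.05, which is 0.0% of those tested, and 0 had an unadjusted p under 0.05. DESeq2 called 0 as well. The short class differed by 0.08 ± 0.12 (log2 fold change, Tet2KO NOD over NOD, SE; adjusted p = 0.642).

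The bases of the loops were then divided into those that match the germline V end, those that match the germline J start and those between. These are descriptions, since the length that chose the cells is their sum. A clonotype with a short loop kept 12.8 ± 0.162 germline V bases and 15.7 ± 0.289 germline J bases, against 13.7 ± 0.0634 and 18.3 ± 0.121 for loops of 13 to 15 (mean over libraries ± SD, n = 4). Between them lay 6.45 ± 0.199 bases in short loops and 10.1 ± 0.142 in loops of 13 to 15. The difference, short minus 13 to 15, was -3.67 bases between V and J, -2.61 J bases and -0.904 V bases.

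The J end differed by more than the V end, both in what was trimmed and in which segment was used. Short clonotypes had lost 4.59 ± 0.162 bases from J and 3.41 ± 0.176 from V, against 2.70 ± 0.123 and 2.73 ± 0.0763 in the 13 to 15 class. The germline J segments they used offered 20.3 ± 0.132 CDR3 bases, against 21.0 ± 0.0268. The germline V segments offered 16.2 ± 0.0218, against 16.4 ± 0.0249. Of the middle bases, the longest run that matched a D segment was 4.33 ± 0.150 bases, against 6.58 ± 0.149. Bases that matched no segment averaged 2.11 ± 0.108, against 3.54 ± 0.0646. Every base of the CDR3 matched a germline segment in 23.3%, 20.9%, 22.7% and 21.7% of the short clonotypes of Tet2KO NOD 1, Tet2KO NOD 2, NOD 1 and NOD 2, against 6.04%, 5.62%, 7.76% and 5.70% of those of 13 to 15. No library's short class overlapped any library's 13 to 15 class. Within the short class the share was 17.5% at 12 amino acids (n = 779), 29.6% at 11 (n = 243) and 54.7% at 10 (n = 53), over the libraries pooled. A base can match a segment without coming from it, and a germline base of NOD that differs from GRCm38 counts as unmatched, so these counts can err either way.

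**Figure D2:**
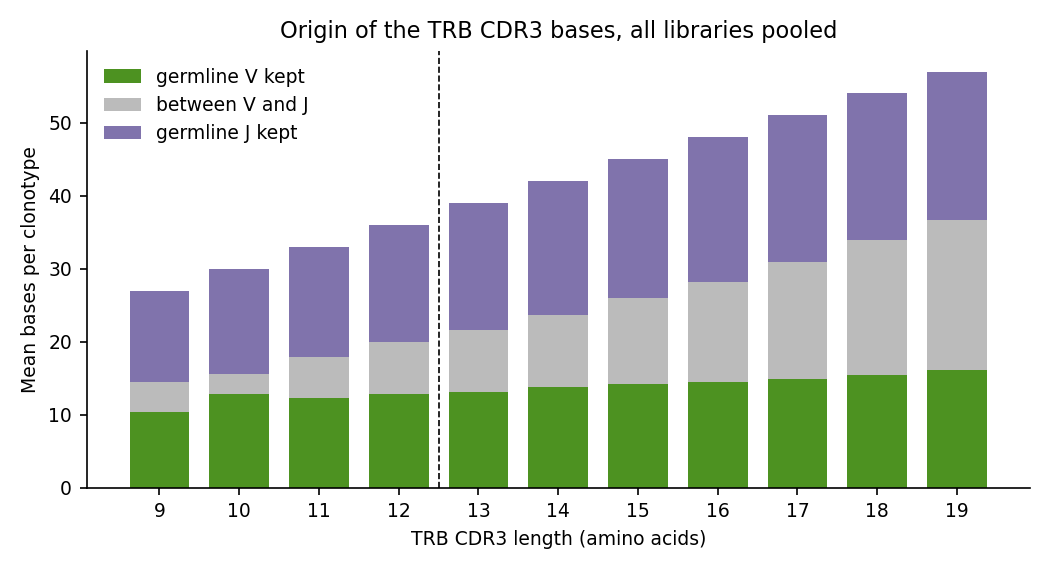
Mean bases per clonotype (y axis) that match the germline V end, lie between V and J, or match the germline J start, stacked, by TRB CDR3 length (x axis, amino acids, lengths with at least 9 clonotypes, libraries pooled); the dashed line separates short loops. The middle part widens from 2.74 bases at 10 amino acids to 11.8 at 15, and the J part from 14.4 to 19.

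Segment use was compared between the length classes with the library as a block, on the number of clonotypes in each class. Of 119 features tested (V, D, J and C segments of TRB, V and J segments of TRA, and properties of the clonotype), 20 passed an adjusted p of 0.05 in edgeR's quasi-likelihood test, which is 16.8%; 9 were higher (7.56%) and 11 lower (9.24%) in short loops, and the median log2 fold change over all features was -0.10. The fit's common dispersion was 9.77e-05, near the lowest it allows, so its p-values rest mostly on the counting of clonotypes. With TMM scaling the median moved by 0.097 and the calls were 13 higher and 10 lower. Without NOD 1, which holds the most clonotypes, 9 features passed, and among those named below TRBV15, TRBJ1-3, TRBJ1-6, TRBJ2-1, TRBJ2-3, TRBJ2-5, TRAJ37, sharing between libraries and clonotypes of 2 or more cells did not. All folds below are short over 13 to 15.

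Of the 12 TRBJ segments, 2 were higher in short loops, 6 were lower and 4 did not pass, with a median log2 fold change of -0.49. TRBJ2-7, the segment with the fewest germline CDR3 bases, was used by 35.8% and 36.7% of the short clonotypes of Tet2KO NOD 1 and 2 and by 37.5% and 47.0% of those of NOD 1 and 2. Its shares in the 13 to 15 class were 17%, 19.2%, 19.4% and 20.1%. The classes do not overlap, and the log2 fold change was 1.03 ± 0.08 (SE, adjusted p = 6.14e-09, higher in 4 of 4 libraries). TRBJ1-1 was used by 18.2%, 16.5%, 17.4% and 14.5% of short clonotypes, against 9.06%, 10.4%, 9.18% and 8.92% (log2 fold change 0.85 ± 0.12, adjusted p = 2.20e-05); it did not pass when each cell was counted once (0.128). Together TRBJ2-7 and TRBJ1-1 gave 428 and 182 of the 1088 short clonotypes. TRBJ1-2 is as short in the germline as TRBJ1-1 but did not pass, at 2.52%, 2.16%, 6.28% and 6.43% of short clonotypes, against 6.20%, 6.88%, 5.57% and 5.37% (log2 fold change -0.14 ± 0.24, adjusted p = 0.777). It was lower in short loops in both Tet2KO NOD libraries and higher in both NOD libraries.

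The segments lower in short loops had 21 to 25 germline CDR3 bases. TRBJ1-3 was the lowest by fold, with 3.14%, 1.44%, 1.48% and 1.20% of short clonotypes, against 4.77%, 5.34%, 6.55% and 5.28% (log2 fold change -1.81 ± 0.29, adjusted p = 9.77e-05). TRBJ2-2 (-1.63, adjusted p = 0.000404) and TRBJ1-6 (-1.34, adjusted p = 0.00745) followed, on 17 and 13 short clonotypes in all. With a short class of 11 or fewer neither passed, at -0.73 (adjusted p = 0.420) for TRBJ2-2 and -1.63 (adjusted p = 0.152) for TRBJ1-6; TRBJ2-2 made up 3.70% of clonotypes at 11 amino acids and 1.03% at 12. TRBJ2-3 (-0.83), TRBJ2-1 (-0.81) and TRBJ2-5 (-0.53) were lower by less, each in 4 of 4 libraries, and TRBJ2-1 also did not pass without Tet2KO NOD 1. None of these 3 passed when each cell was counted once, where TRBJ2-5 was -0.17 (adjusted p = 0.788), or with a short class of 11 or fewer, and TRBJ2-5 did not pass in DESeq2 (0.265). TRBJ1-4, TRBJ1-5 and TRBJ2-4 had log2 fold changes of -0.45, -0.41 and -0.40 and did not pass.

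**Figure D3:**
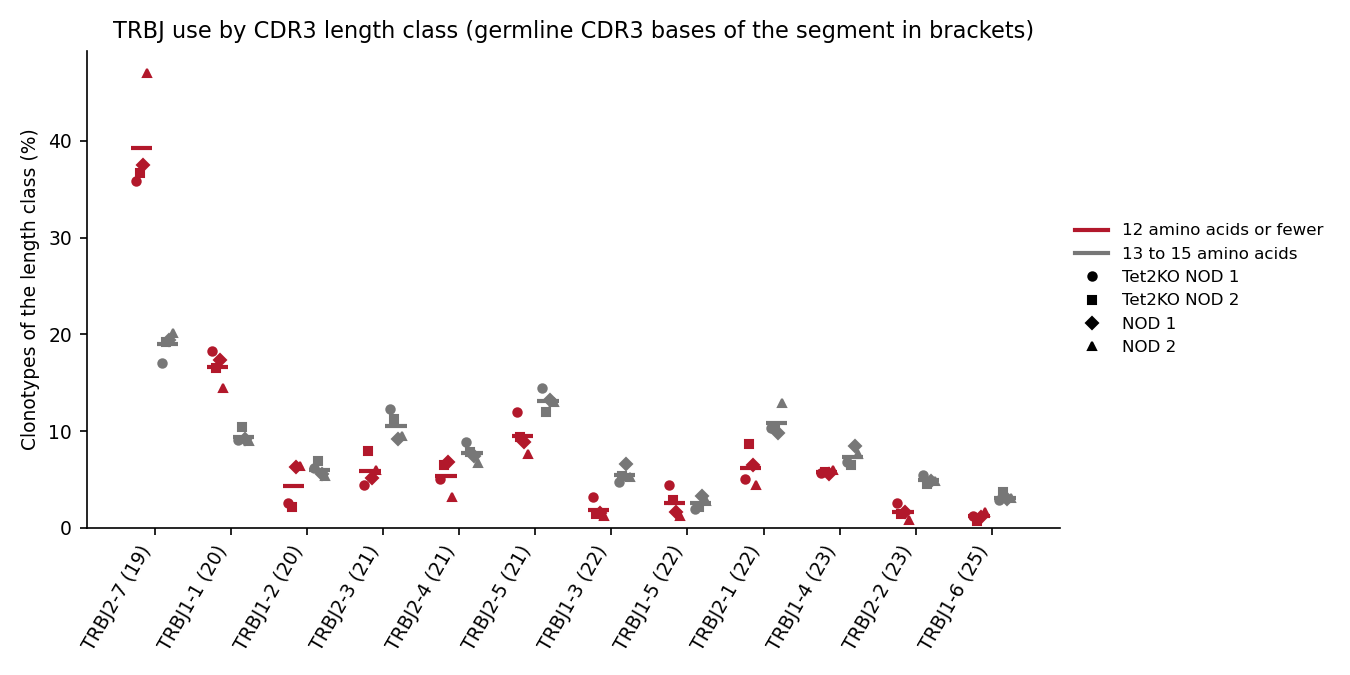
TRBJ use as a share of the clonotypes of each length class (y axis, percent), segments ordered on the x axis by their germline CDR3 bases (in brackets); points are libraries and lines are means, short loops in red on the left and loops of 13 to 15 in grey on the right. TRBJ2-7 and TRBJ1-1 stand higher in short loops, and most segments of 21 or more bases stand lower.

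Of the 18 TRBV segments tested, 3 were higher, 3 were lower and 12 did not pass (median log2 fold change -0.08). TRBV20 had the largest increase of the segments called higher. It was used by 11.9%, 7.91%, 9.43% and 8.84% of the short clonotypes of Tet2KO NOD 1, Tet2KO NOD 2, NOD 1 and NOD 2, against 2.54%, 2.39%, 3.06% and 2.56% of the 13 to 15 class (log2 fold change 1.76 ± 0.19, adjusted p = 1.41e-06). Seen from the segment, 43.1% ± 7.54 of TRBV20 clonotypes were short (SD, n = 4 libraries). TRBV30, the other segment ending with 14 germline bases, was short in 9 of its 16 clonotypes and too rare for the test.

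TRBV15 was higher in short loops although its germline end is 17 bases. It lost 3.82 V bases per clonotype, against 1.85 for TRBV5 and 1.45 for TRBV2, which end with the same number (libraries pooled, read against GRCm38). The segment named TRBV10, also of 17 bases, lost 4.77 and did not differ in use by a passing test (log2 fold change 0.01 ± 0.33, adjusted p = 0.972). TRBV15 was used by 13.8%, 9.35%, 7.76% and 8.43% of short clonotypes, against 5.56%, 5.20%, 4.43% and 5.53% (log2 fold change 0.86 ± 0.17, adjusted p = 0.00135); it did not pass when each cell was counted once (0.255) or with a short class of 11 or fewer (0.133). TRBV5 was used by 4.40%, 6.47%, 3.51% and 4.42%, against 9.22%, 9.83%, 11.5% and 11.1% (-1.36 ± 0.19, adjusted p = 2.20e-05). TRBV2 was used by 1.26%, 0%, 3.70% and 2.01%, against 5.41%, 3.79%, 6.51% and 6.11% (-1.25 ± 0.28, adjusted p = 0.00312); it did not pass without Tet2KO NOD 1 (0.0621) or with a short class of 11 or fewer (0.182).

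TRBV13-2 (0.76, adjusted p = 0.0468) and TRBV19 (-0.51, adjusted p = 0.0497) lay at the threshold, and each was lost when any 1 library was left out. The deposited tables also carry the joined name TRBV12-2+TRBV13-2, which had the CDR3 start of TRBV13-2; its use differed by 0.17 ± 0.13 (adjusted p = 0.583), so the call on TRBV13-2 depends on how the name was given. TRBV13-1, TRBV13-3 and TRBV31, also frequent in short loops at 8.55%, 6.55% and 6.45% on average, had log2 fold changes of -0.09, 0.42 and 0.05 and did not pass. The TRBV13 family as a whole held 335 short clonotypes (30.8%), against 1354 of the 13 to 15 class (26.5%).

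**Figure D4:**
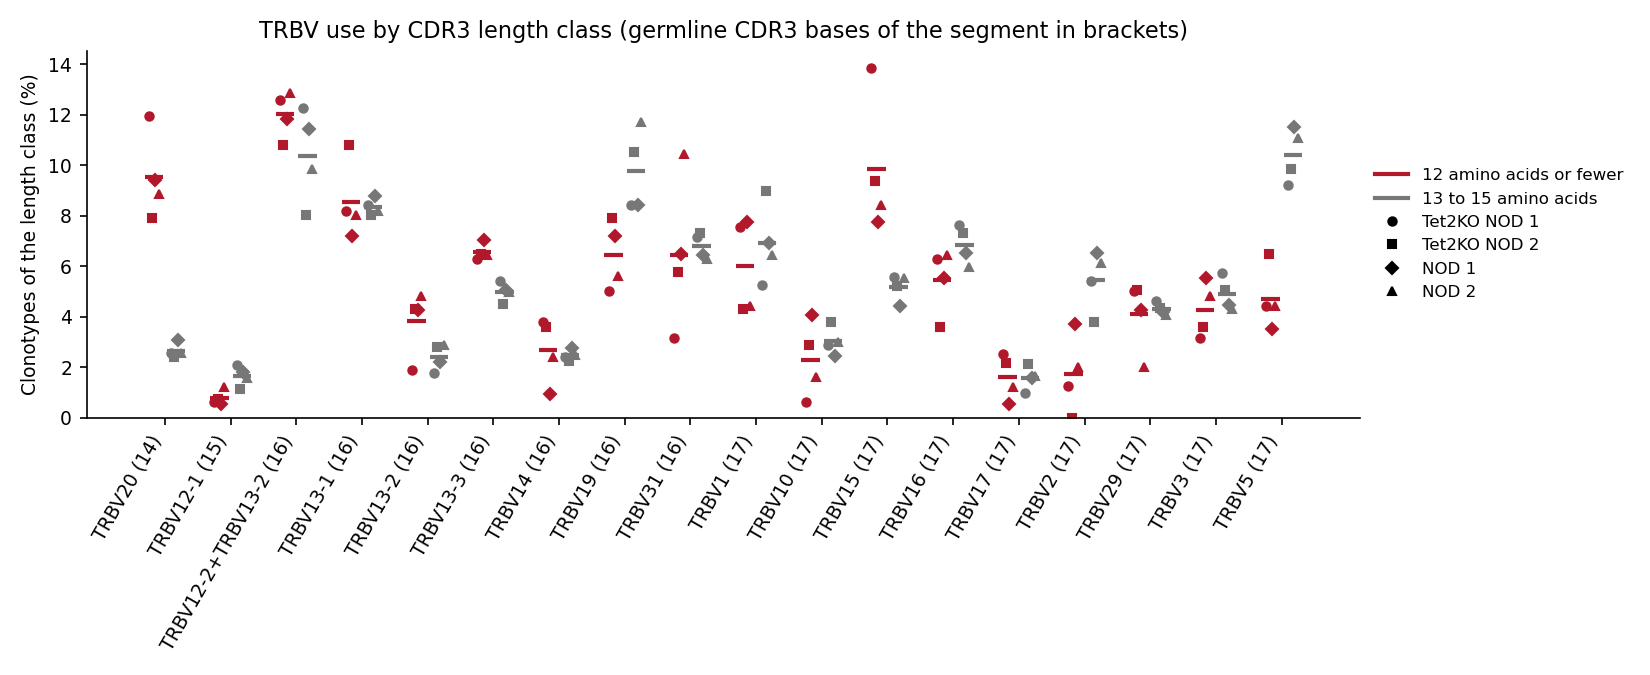
TRBV use as a share of the clonotypes of each length class (y axis, percent) for the 18 segments tested, ordered on the x axis by their germline CDR3 bases (in brackets); points are libraries and lines are means, short loops in red on the left and loops of 13 to 15 in grey on the right. TRBV20 and TRBV15 stand higher in short loops in every library, and TRBV5 and TRBV2 stand lower.

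The germline lengths of V and J combined. Of clonotypes that joined a V of 14 bases to a J of 19 or 20, 63.2%, 50.0%, 57.8% and 66.7% were short in Tet2KO NOD 1, Tet2KO NOD 2, NOD 1 and NOD 2 (58 of 97 in all). Of clonotypes that joined a V of 17 bases to a J of 21 or more, 5.63% to 8.83% of a library were short (172 of 2228). Between these extremes V length separated the libraries less. Over all J, 15.4% ± 0.561 were short with a V of 15 or 16 bases and 13.2% ± 2.40 with 17 (SD over libraries), and these overlap. With a J of 19 or 20, Tet2KO NOD 1 had 23.6% with a V of 15 or 16 bases and 29.6% with 17. The other libraries went the other way. Tet2KO NOD 2 had 27.2% and 15.1%, NOD 1 had 27.7% and 23.2%, and NOD 2 had 29.4% and 22.5%. Of the 267 clonotypes with a V of 14 bases, 251 were TRBV20. TRBV20 with TRBJ1-1 was short in 16 of 20 clonotypes, and TRBV5 with TRBJ2-5 in 2 of 110. Within the short class, TRBJ2-7 made up 38.1% of clonotypes at 12 amino acids, 37.0% at 11 and 66.0% at 10; it made up 25.5% at 13 and 14.8% at 15.

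A D segment was named for few short loops. TRBD1 was named in 9.43%, 5.76%, 6.84% and 3.21% of short clonotypes, against 15.3%, 17%, 17.1% and 16.7% of the 13 to 15 class (-1.42 ± 0.17, adjusted p = 2.18e-06). TRBD2 was named in 2 of 1088 short clonotypes, 1 in each NOD library and 0 in the Tet2KO NOD libraries, against 332 of 5102. In 90.6% to 96.4% of short clonotypes no D was named, against 75.6% to 78.7% (0.29 ± 0.03, adjusted p = 2.13e-06).

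The TRA partner was measured independently of the rule. The TRA CDR3 of short clonotypes averaged 13.8, 13.6, 13.7 and 13.7 amino acids in Tet2KO NOD 1, Tet2KO NOD 2, NOD 1 and NOD 2, against 13.7, 13.6, 13.6 and 13.7. The difference was 0.0216 ± 0.0514 amino acids (mean ± SD over 4 libraries, exact two-sided sign-flip permutation p = 0.625, with 3 of 4 libraries higher). Its 3 length classes did not pass the test across features either: TRA CDR3 of 12 or fewer made up 16.7% of short clonotypes, against 18.2% (log2 fold change -0.19, adjusted p = 0.331). The class of 13 to 15 differed by 0.06 and that of 16 or more by -0.15. A second TRA was found in 12.7% of short clonotypes, against 12.8%.

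Among the TRA segments, 1 of 36 TRAJ was higher in short loops, 0 were lower, and 0 of 42 TRAV passed. TRAJ37 was used by 5.66%, 5.04%, 5.55% and 4.42% of short clonotypes, against 2.70%, 2.39%, 2.98% and 2.15% (0.97 ± 0.22, adjusted p = 0.00354). It was higher in 4 of 4 libraries with no overlap, but did not pass without NOD 1 or when each cell was counted once. TRAV6D-6 (0.64, adjusted p = 0.0539) and TRAJ42 (0.62, adjusted p = 0.0836) were higher in 4 of 4 libraries and did not pass. The most used TRAV of short clonotypes were TRAV5-4 (6.52%), TRAV6N-7 (5.63%), TRAV16N (5.36%) and TRAV6D-6 (5.00%), and the most used TRAJ were TRAJ49 (5.91%), TRAJ45 (5.54%), TRAJ37 (5.16%) and TRAJ42 (4.73%).

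Alpha chain types known from islet-reactive cells of NOD mice differed between the length classes. TRAV16 with TRAJ42 is the alpha chain of many CD8 T cells of NOD mice that recognise a peptide of the islet enzyme IGRP. It occurred in 2, 4, 13 and 4 short clonotypes of Tet2KO NOD 1, Tet2KO NOD 2, NOD 1 and NOD 2, 23 in all (2.11%), against 5, 2, 14 and 8 of the 13 to 15 class, 29 in all (0.568%). TRAV5 with TRAJ53 or TRAJ42 is an alpha chain type of CD4 T cells that recognise insulin B chain. It occurred in 0 short clonotypes of any library, against 10, 13, 26 and 12 of the 13 to 15 class, 61 in all (1.20%). With 3 taken as the upper limit of a count of 0, the 1088 short clonotypes, libraries pooled, have a limit of 0.276%. That limit is 4.34-fold below the observed 1.20%. It treats clonotypes as independent and covers counting error only, and the 1.20% was taken without its error. When these lists and the TRBV13 family were added to the fit as 3 rows, after the data were seen, the TRAV16 list had a log2 fold change of 1.86 ± 0.46 and an adjusted p of 0.00515 over 122 rows, and the TRAV5 list an adjusted p of 0.00242. The TRBV13 family did not pass (0.21 ± 0.08, adjusted p = 0.0819). These rows were fitted in the main setting only and not under the alternatives. The 23 clonotypes include recurrent loops (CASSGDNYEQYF and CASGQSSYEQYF, below), so they are not 23 independent receptors. Antigen binding was not measured.

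Short clonotypes were more often expanded. In Tet2KO NOD 1 and 2, 24.5% and 18.7% of short clonotypes were seen in at least 2 cells, against 17.8% and 14.6% of loops of 13 to 15. In NOD 1 and 2 the shares were 17% and 16.1%, against 13.0% and 12.8%. The short class was higher within each of the 4 libraries, by 4.52 ± 1.52 percentage points (exact sign-flip permutation test at its smallest possible p, above 0.1), although the ranges over libraries overlap. The test across features gave a log2 fold change of 0.38 ± 0.10 (adjusted p = 0.00879), which did not pass without NOD 1 (0.121), in DESeq2 (0.356), or with a short class of 11 or fewer (0.152). Leaving out TRBV20 the shares were 21.4%, 19.5%, 17.1% and 14.1%, against 17.5%, 14.7%, 12.7% and 12.8%, and within TRBJ2-7 alone they were 24.6%, 21.6%, 19.7% and 14.5%, against 13.1%, 15.3%, 14.5% and 9.84%. Within TRBJ1-1 alone the short class was higher in 2 of 4 libraries. Over the other TRBJ together (478 short clonotypes) it was higher in 3 of 4, with 17.8%, 21.5%, 16.8% and 17.7%, against 18.3%, 15%, 12.5% and 14.0%.

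Clone size in cells varied more. Short clonotypes averaged 2.30, 1.36, 1.82 and 1.88 cells in Tet2KO NOD 1, Tet2KO NOD 2, NOD 1 and NOD 2, against 1.70, 1.42, 1.53 and 1.40. Tet2KO NOD 2 was the library where short clonotypes were not larger, and its largest had 7 cells. Clonotypes of 5 or more cells made up 6.29%, 0.719%, 5.73% and 4.82% of short clonotypes, against 5.56%, 3.65%, 3.41% and 2.56%.

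TRB UMIs moved with the length class. Averaged over clonotypes, short receptors had 13.0, 15.5, 13.8 and 18.1 TRB UMIs per cell, against 10.8, 13.6, 11.9 and 15.8, higher in 4 of 4 libraries (difference 2.11 ± 0.226, SD). Among clonotypes of a single cell the means were 11.6, 13.6, 13.4 and 17, against 10.1, 12.7, 11.2 and 14.5. Among clonotypes of 2 or more cells the means per cell were 19.6, 24.9, 17.9 and 27.6, against 15.5, 20.6, 19.4 and 26.7, so NOD 1 was lower in short loops. Over all cells, TRA UMIs averaged 8.30 ± 0.947 in the short class, against 7.54 ± 0.858, and were higher in 3 of 4 libraries. For clonotypes of a single cell, TRA UMIs averaged 6.68 ± 0.914, against 6.51 ± 0.938, and were higher in 2 of 4 libraries. By V segment, cells of the TRBV13 family had 19.6 ± 4.29 TRB UMIs in the short class, against 12.8 ± 2.08, and the other cells 17.7 ± 3.24, against 16.5 ± 2.76, where Tet2KO NOD 2 was lower in short loops (15.3, against 16.8). TRA UMIs of the TRBV13 family were 7.84 ± 1.35 in the short class, against 6.71 ± 0.707, higher in 4 of 4 libraries. Those of the other cells were 8.45 ± 0.885, against 7.77 ± 0.904, higher in 3 of 4. The part of UMI number in the expansion result was not tested.

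**Figure D5:**
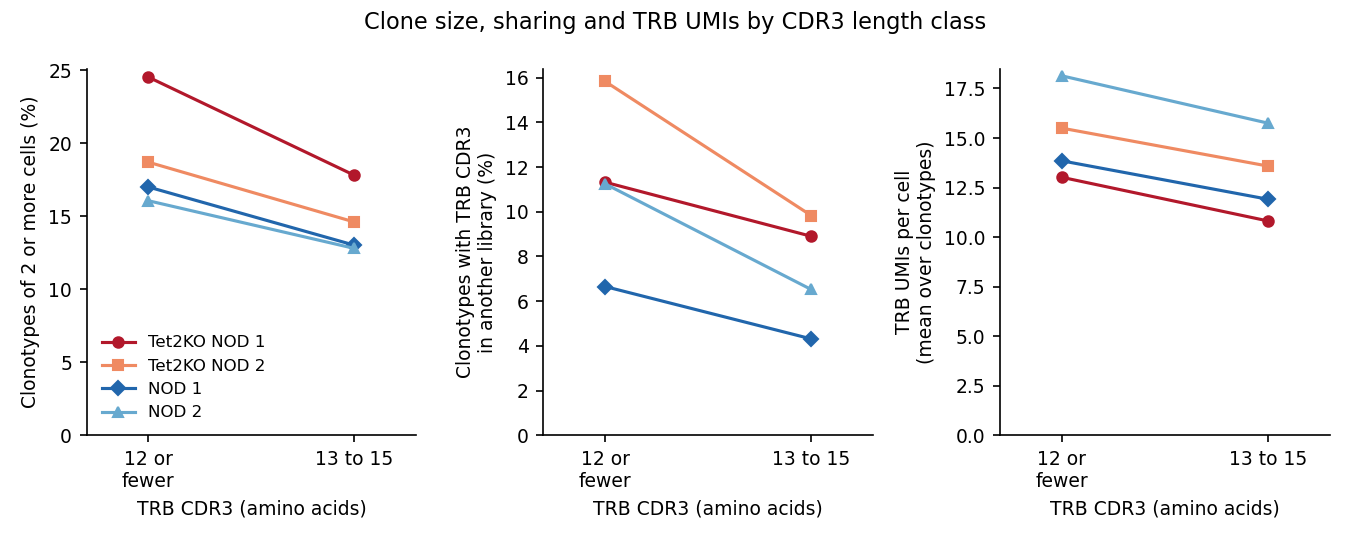
Each line joins the short class (left) to the 13 to 15 class (right) of 1 library, for the share of clonotypes of 2 or more cells, the share of clonotypes whose TRB CDR3 occurs in another library, and the mean TRB UMIs per cell (y axes). All lines of the 3 panels fall to the right.

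The largest short clonotype of each library is shown with the bases between V and J in capitals, since it held the most cells of any short clonotype there.
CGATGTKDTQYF, TRBV20 and TRBJ2-5, Tet2KO NOD 1: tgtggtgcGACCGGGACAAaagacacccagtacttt
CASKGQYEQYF, TRBV13-1 and TRBJ2-7, Tet2KO NOD 2: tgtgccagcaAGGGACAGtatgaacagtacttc
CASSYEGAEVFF, TRBV10 and TRBJ1-1, NOD 1: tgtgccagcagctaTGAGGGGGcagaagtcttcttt
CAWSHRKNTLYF, TRBV31 and TRBJ2-4, NOD 2: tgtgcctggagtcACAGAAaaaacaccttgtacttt
They held 43, 7, 34 and 40 cells and ranked 1, 13, 3 and 2 among all clonotypes of their libraries. Counted by TRB loop alone, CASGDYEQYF was carried by 42 cells of NOD 1, in 6 clonotypes, and by 7 of Tet2KO NOD 2, in 4. The clonotype of 43 cells, 2.68% of the paired cells of Tet2KO NOD 1, paired with a TRA of TRAV2 and TRAJ30. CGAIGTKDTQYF, which differs at 1 residue, occurred with a TRA of TRAV2 in 3 cells of Tet2KO NOD 2 and 15 cells of NOD 2. That pair was noticed after the values were seen. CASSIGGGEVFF, of TRBV19 and TRBJ1-1, was the second largest short clonotype in both NOD libraries, with 28 cells in NOD 1 and 36 in NOD 2, but with TRA of different segments.

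The shortest loops were of 10 amino acids in Tet2KO NOD 1 (6 clonotypes), 9 in Tet2KO NOD 2, 6 in NOD 1 and 8 in NOD 2. The loop of 6, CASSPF, was carried by 2 cells and kept 4 J bases. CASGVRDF, of 8 amino acids, was carried by 8 cells of NOD 2.

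As a class, short TRB loops recurred between libraries more often than longer ones, but not at every length. Of short clonotypes, 11.3%, 15.8%, 6.65% and 11.2% of Tet2KO NOD 1, Tet2KO NOD 2, NOD 1 and NOD 2 had a TRB CDR3 amino acid sequence that another library also held, against 8.90%, 9.83%, 4.31% and 6.52% of the 13 to 15 class (log2 fold change 0.63 ± 0.16, adjusted p = 0.00679, higher in 4 of 4 libraries). A shared sequence is counted in each library that holds it, so the libraries are not independent for this feature. The p-value does not account for that. The call did not pass without NOD 1 (adjusted p = 0.0512) or in the fit without the library block (0.0554). It also did not pass in DESeq2 or with a short class of 11 or fewer. By length, libraries pooled, the share was 35.8% at 10 amino acids (n = 53), 6.17% at 11 and 8.99% at 12. It was 7.41% at 13, 6.68% at 14 and 4.44% at 15. Of the 104 shared short clonotypes, 15 carried the same sequence, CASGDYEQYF. Cells with this loop bear more than 1 V name, so 1 receptor can count there as more than 1 clonotype. Of 979 distinct short sequences, 37 (3.78%) were in more than 1 library and 3 in all 4; of 4750 distinct sequences of 13 to 15, 129 (2.72%) were in more than 1 and 0 in all 4. Sharing was also counted per 1000000 possible pairs of distinct TRB CDR3 sequences of 1 class between 2 libraries. Of pairs within the short class 104 to 401 matched, against 14.0 to 34.5 of pairs within the 13 to 15 class. The classes differ in their number of sequences, and sequences of unlike length cannot match. These rates are therefore not on the scale of the shares of sequences (3.78% and 2.72%). The 6 pairs of libraries do not overlap between the classes.

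Identical clonotypes of both chains were found in more than 1 library for 9 of 1077 distinct short clonotypes, against 23 of 5079. The 2 pairs of libraries of the same set number shared 4 and 3 short clonotypes and 10 and 10 of 13 to 15; the other pairs shared 0 to 3 and 0 to 2. Leaving such clonotypes out, 106 to 349 of every 1000000 pairs within the short class matched, against 13.1 to 24.7 within the 13 to 15 class. Every CDR3 base matched a germline segment in 42.9% ± 2.89 of shared short clonotypes, against 19.4% ± 2.37 of those in 1 library (SD, n = 4 libraries). The 13 to 15 class also differed in this way, at 12.5% ± 4.32 of the shared clonotypes and 5.83% ± 1.01 of the unshared. Shared sequences recur between libraries, so the SDs of shared clonotypes are not over independent libraries. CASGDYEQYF, matched throughout in each of its forms, made up 15 of the 104 shared short clonotypes. Loop length was not held equal between shared and unshared clonotypes. Shared short clonotypes were expanded in 40.6% ± 9.63, against 16.4% ± 5.19. In the 13 to 15 class, 31.7% ± 5.66 of the shared clonotypes were expanded, against 13.2% ± 1.83 of the unshared.

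The most shared short loop was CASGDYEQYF, of 10 amino acids. Its 15 clonotypes and 63 cells lay in all 4 libraries, 1 and 4 clonotypes (1 and 7 cells) in Tet2KO NOD 1 and 2, against 6 and 4 (42 and 13 cells) in NOD 1 and 2. Its V was named TRBV13-2 in some cells and TRBV12-2+TRBV13-2 in others, and clonotypes were divided by that name. Its 3 nucleotide sequences therefore counted as 6 TRB, and 1 receptor can count as more than 1 clonotype. The 3 nucleotide sequences that encode the loop are shown, with bases of neither V nor J in capitals.
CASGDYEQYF, form A: tgtgccagcggtgactatgaacagtacttc
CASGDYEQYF, form B: tgtgccagcggtgattatgaacagtacttc
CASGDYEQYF, form C: tgtgccagcggGGActatgaacagtacttc
Form A is 14 bases of TRBV13-2 joined to 16 of TRBJ2-7, form B is 15 joined to 15, and neither has a base between. Form C has 3 bases between, all of which match a D segment. All but 1 of the clonotypes paired with the same TRA CDR3, which is of TRAV6D-6 and TRAJ45 and 15 amino acids long. That pair was found in 14 clonotypes and 60 cells in the 4 libraries, encoded by 3 TRB sequences and 3 TRA sequences in 6 combinations. The other clonotype had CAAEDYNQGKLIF, in 3 cells of Tet2KO NOD 2. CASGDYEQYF also occurred in called cells outside the paired set, in 1, 2, 17 and 4 TRB contigs of Tet2KO NOD 1, Tet2KO NOD 2, NOD 1 and NOD 2, and in barcodes not called as cells, in 0, 0, 14 and 2.

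The other sequences in all 4 libraries also kept to few TRA. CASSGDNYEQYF (TRBV13-3, TRBJ2-7) had 6 clonotypes by 5 nucleotide sequences and 3, 4, 12 and 4 cells. Of these, 5 clonotypes carried TRAV16N with TRAJ42, with one TRA CDR3 in Tet2KO NOD 1, Tet2KO NOD 2 and NOD 2 (3 clonotypes) and another in NOD 1 (2 clonotypes). The TRA CDR3 of those 3 clonotypes was also that of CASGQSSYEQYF, with 2 cells in Tet2KO NOD 2 and 22 in NOD 2. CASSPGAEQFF had 5 clonotypes by 5 nucleotide sequences and 22, 4, 25 and 2 cells. Its 4 TRBV15 clonotypes paired with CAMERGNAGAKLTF (TRAV13-4-DV7, TRAJ39) in Tet2KO NOD 2, NOD 1 and NOD 2, and its TRBV29 clonotype in Tet2KO NOD 1 with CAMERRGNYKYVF of the same TRAV.

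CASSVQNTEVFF, in 3 libraries, paired its 4 TRBV13-1 clonotypes with TRAV3-1 and TRAJ57 in each case. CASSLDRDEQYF and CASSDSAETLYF, also in 3 libraries, had a different TRA CDR3 in each of their 4 and 3 clonotypes. Over the class, 12 of the 37 shared short TRB sequences (32.4%) had the same TRA CDR3 amino acids in more than 1 library, against 50 of 129 (38.8%) of the 13 to 15 class. The short class was thus not the higher one in this share.

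Within the short class, segment use was compared between the genotypes. Of 46 features tested, 0 passed an adjusted p of 0.05 in edgeR's quasi-likelihood test (0.0%), 3 had an unadjusted p under 0.05, and DESeq2 called 0. TRBJ1-2 had the smallest p. It was used by 2.52% and 2.16% of short clonotypes in Tet2KO NOD 1 and 2 (4 and 3 clonotypes), against 6.28% and 6.43% in NOD 1 and 2 (34 and 16), with a log2 fold change of -1.41 ± 0.45 (adjusted p = 0.258). TRBV31 (-0.82) and TRAJ57 (-0.70) were the next lower in Tet2KO NOD, with adjusted p of 0.727 and 0.739. A TRB CDR3 in another library (0.72, adjusted p = 0.605), TRBV15 (0.56, adjusted p = 0.739) and a clonotype of 2 or more cells (0.38, adjusted p = 0.739) were the higher features of smallest p.

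The difference between the length classes did not pass a test of its change with genotype for any of 119 features (0.0%; edgeR's quasi-likelihood test of the interaction, 6 with an unadjusted p under 0.05, 0 in DESeq2). TRBJ1-2 (-1.67 ± 0.52, adjusted p = 0.262), TRAV21-DV12 (-1.76, adjusted p = 0.618) and TRBV31 (-0.99, adjusted p = 0.641) were lower, and TRBJ1-5 (1.91, adjusted p = 0.394), TRBV14 (1.59, adjusted p = 0.641) and TRBV17 (1.68, adjusted p = 0.881) higher in the short class of Tet2KO NOD. Among single values of short clonotypes, the share of 2 or more cells was 21.6% ± 4.12 in Tet2KO NOD and 16.5% ± 0.666 in NOD (SD, n = 2 each, exact permutation p = 0.33, the smallest possible). The genotypes did not overlap there, nor did they in the 13 to 15 class (16.2% ± 2.26 and 12.9% ± 0.156). Cells per short clonotype averaged 1.83 ± 0.666 in Tet2KO NOD and 1.85 ± 0.0444 in NOD, bases between V and J 6.31 ± 0.0564 and 6.59 ± 0.192, and TRA CDR3 length 13.7 ± 0.0993 and 13.7 ± 0.00742.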

How the data were processed

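T-cell receptor contigs of pancreatic islet cells were measured in 4 libraries. The authors deposited whole-number counts of reads and UMIs per assembled contig with chain, segments, CDR3 and flags, per the file headers; contig length (other) was not used. Cell Ranger 7.0.1 and build GRCm38 are named in the submitters' processing notes. The V(D)J segment set and the receptor amplification steps are not given in the sources used here: the labels' protocol describes nuclei and ATAC libraries.

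Cells with more than 1 TRB were left out, and the TRA of most UMIs was kept. Clonotypes, each counted once, were tested with edgeR 4.0.16 (quasi-likelihood, R 4.3.3; library size the number of clonotypes of the class, count of at least 10 in at least 2 columns, Benjamini-Hochberg over all features kept). The comparison of length classes used 8 columns with the library as a block; genotype fits used the genotype alone. Standard errors were taken as the size of the log2 fold change over the root of the F statistic. The fit was tested on counts simulated at its own dispersion, so that test does not cover a larger spread between libraries. Single values were compared by exact sign-flip (4 libraries) or permutation (2 against 2) tests; no p-value came from cells. Germline parts were the longest match to the GRCm38 V end (from the start) and J start (from the end) of RefSeq's assembly and GENCODE's annotation, then the longest D match between them. The deposited name TRBV10 carried the framework end of the annotated Trbv4 in 386 of 386 cells and was placed there.

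Named features were those past the threshold, the most used segments, all TRBJ and TRBD, every clonotype property, and the largest, shortest and most shared short clonotypes. Members and lists were chosen with earlier results of these data known. The alternatives were each cell counted once, TRB alone, cells with more than 1 TRB kept, a minimum of 3 UMIs, shared clonotypes or barcodes left out, DESeq2 1.42.0, TMM, no filter, other length limits and each library left out.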

Additional observations from a re-analysis of the deposited data

Results flagged for a closer look

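The net charge of the whole CDR3 (arginine and lysine minus aspartate and glutamate, per clonotype) differed from the 13 to 15 class in opposite directions in the genotypes: short clonotypes were 0.0802 and 0.104 higher in Tet2KO NOD 1 and 2, against -0.0685 and -0.0696 in NOD 1 and 2. The mean difference between genotypes was 0.161 charges, and both libraries of each genotype moved one way. The value was added after the data were seen, and the difference has an exact permutation p of 0.33 over 2 against 2 libraries, the smallest possible.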

How the results depend on the processing

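All 20 features past the threshold for short against 13 to 15 kept their direction in the alternatives that gave a value, and 5 (TRBJ2-7, TRBV20, TRBV5, TRBD1 and TRBD2) passed in every one. The count was 11 with a short class of 11 or fewer, 13 in DESeq2 (51 adjusted p not given), 18 with no replicate block, and 9 to 20 with 1 library left out; fewer clonotypes enter the first and the last of these. Depth limits rare segments: 119 features had enough clonotypes to be tested. The results that changed sign were never past the threshold, and the cause was not tested. Short against 13 to 15, counting each cell once gave log2 fold changes of 0.25 for TRBV13-1, -0.52 for TRBV31, 0.13 for TRAV6N-7, 0.017 for TRAV16N and 0.079 for a second TRA. TMM gave 0.014, 0.084, 0.0029 and 0.048 for TRBV13-1, TRAV5-4, TRAV16N and a second TRA; DESeq2 gave -0.058 for TRBV31. Against 13 or more, TRBJ1-2 was 0.033 and TRAV5-4 0.018; without clonotypes in over 1 library TRAV5-4 was 0.021; with 11 or fewer TRAJ49 was -0.10 and a second TRA 0.15. Leaving out 1 library gave -0.17 to 0.10 for TRBV13-1, -0.23 to 0.19 for TRBV31, -0.51 to 0.023 for TRBJ1-2, -0.78 to 0.10 for TRBJ1-5, -0.34 to 0.16 for TRAV5-4, -0.25 to 0.18 for TRAV6N-7, -0.25 to 0.0031 for TRAV16N, -0.28 to 0.091 for TRA of 16 or more and -0.10 to 0.057 for a second TRA. The difference in TRA length ranged over -0.000629 to 0.0410 and in net charge over -0.0193 to 0.0387.

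Between Tet2KO NOD and NOD, counting each cell once gave -0.33 at 10 amino acids, 0.15 at 11, -0.0071 for the short class, -0.28 for sharing, -0.022 for clonotypes of 2 or more cells, -0.129 points for the short share, -4.01 points for sharing and 0.0292 bases between V and J. With 11 or fewer, the short class gave -0.16 on the log2 scale and -0.393 points, TRA length -0.128, cells per clonotype 0.247, and the interaction -0.30 for TRBJ1-5 and -5.93 for TRBV14. Cells per clonotype were 0.0188 with TRB alone as the clone and 0.108 without clonotypes in over 1 library. Leaving out 1 library gave -0.092 to 0.40 at 12 amino acids, -0.029 to 0.70 at 10, -0.31 to 0.0059 at 16, -0.33 to 0.029 at 11, -0.094 to 0.24 for the short class, -0.882 to 2.81 points for its share, -0.0308 to 0.110 for TRA length, -0.492 to 0.450 cells per clonotype and -3.88 to 0.409 TRB UMIs. The set number as a replicate block gave 0 and 0 calls for lengths and short features, and crossed numbers 0 and 0. The differences between the sets correlated at 0.302 over the 46 short features and -0.180 over 136 features of all clonotypes, and the labels do not say what a set number marks, so it was not used as the pairing of the fits. Libraries of the same set did share more identical clonotypes of 13 to 15 (10 and 10, against 0 to 2 for the other pairs), and the part of this in the results was not tested. Within set 2 the short share differed by -0.710 points and TRA length by -0.0255, and within set 1 cells per clonotype by 0.481 (replicate block).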

Other observations

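Residues in the core of the loop, 3 left out at each end, were compared after the data were seen. Of all core residues, glutamate made up 14.3% ± 0.762 of the core of short loops, against 8.85% ± 0.156 of loops of 13 to 15, and was higher in 4 of 4 libraries (SD, n = 4). Lysine was also higher in 4 of 4 libraries, at 1.39% ± 0.409, against 0.516% ± 0.109. Glycine was 15.1% ± 0.641, against 18.3% ± 0.230, and asparagine 4.39% ± 0.519, against 5.71% ± 0.161, both lower in 4 of 4. Arginine (7.54% ± 0.410, against 6.13% ± 0.392) and tyrosine (4.54% ± 0.644, against 3.37% ± 0.229) were also higher in 4 of 4, and proline and tryptophan lower in 4 of 4. These are descriptions with no test. The core takes in germline J residues, so these shares also reflect which J was used. With 3 residues left out, germline TRBJ2-7 (SYEQYF) and TRBJ1-1 (NTEVFF), both higher in short loops, end the core on glutamate. So does TRBJ2-1 (NYAEQFF), which was lower. The parts of J use and of core length in the residue shares were not tested. Mean hydropathy of the core was -1.53 ± 0.0496, against -1.31 ± 0.00375.

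Short loops were also counted in TRB contigs of called cells outside the paired set, where they made up 18.9% and 18.4% in Tet2KO NOD 1 and 2, against 20.1% and 21.6% in NOD 1 and 2. In barcodes not called as cells they made up 17.8% and 14.7%, against 24.4% and 22.4%.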
